A study of Homo sapiens with 4 samples.

Results

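CDCP1 encodes a transmembrane glycoprotein with CUB domains, extracellular folds also found in complement proteases and guidance receptors. It is described here through every value that the deposited tables hold for it in PANC-1, an established cell line from a human pancreatic ductal adenocarcinoma. Its members were the gene-table row with the symbol CDCP1, 1 of 24483 genes, and the peaks that the authors assigned to that symbol. These were 19 of 95785 peaks of vehicle cells and 14 of 48104 peaks of lactate cells. The authors' table comparing the immunoprecipitated libraries has no symbol column, and 19 of its 116484 regions were matched to CDCP1 by their overlap with those peaks.

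The study sequenced RNA recovered with an antibody against NSUN2 (RNA immunoprecipitation, IP) and the matching input RNA, taken before the antibody step. Wild-type PANC-1 cells had been given 30 mM sodium lactate for 24 h, or ddH2O as the vehicle per the treatment protocol, and lysates then spent 4 h on the antibody beads. The 4 groups were the input and the IP of vehicle cells and the input and the IP of lactate cells, each with 1 library. The control samples are labelled only nc, which was read as that vehicle. Replicate error is unknown throughout and no difference between groups was tested. Libraries were made with SMART-Seq v4, a kit that amplifies full-length cDNA and adds no molecular identifiers. Each interval below covers the counting error of reads only. Amplified copies cannot be told from separate molecules, so the intervals may be too narrow. A library from a control antibody was not analysed here, so RNA held by NSUN2 and RNA held by the beads cannot be told apart.

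NSUN2 is a methyltransferase that places 5-methylcytosine on transfer RNA and on some messenger RNA. CDCP1 sits at the surface of epithelial cells, where SRC-family kinases phosphorylate its cytoplasmic tail and the phosphorylated tail recruits the kinase PKC-delta, encoded by PRKCD. Serine proteases can cut its extracellular part, and the protein is known for a role in the detachment, migration and spread of carcinoma cells, pancreatic ones included.

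Library totals, recovered from the deposited values, ran from 11175432 to 17626197 reads. Genes of the nuclear genome took 31.3% of the input and 30.3% of the IP reads in vehicle cells, but 20.9% and 13.9% in lactate cells, and nearly all of the rest was mitochondrial. FPKM (fragments scaled to gene length in kilobases and to 1000000 fragments in the library) divides by all of these reads, so CDCP1 gene values and summit stacks are also given with the libraries set to the same nuclear total. Values of other genes are on all reads. Of 8 markers of ductal carcinoma cells, all in the gene table, 6 reached FPKM 1 in each library. Of 21 markers of neurons and Schwann cells, fibroblasts, endothelium and immune cells, 12 were in the table, and their summed FPKM was 2.14 to 4.69 per library, against 179 to 525 for the ductal markers. That ductal sum came mainly from VIM and KRT18, with 237 and 116 of 392 in the vehicle input and 176 and 45.5 of 241 in the lactate input. KRT7 was under FPKM 1 in every library, and EPCAM was so in both IPs.

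CDCP1 RNA made up a larger share of the NSUN2 IP than of the input in both conditions. The gene (ENSG00000163814) lies on the minus strand of chromosome 3 at 45082277 to 45146482 in GRCh38, a span of 64206 bp, and 6508 bp of it entered the authors' FPKM. Its FPKM was 3.13 in the vehicle input (359 reads, 95% interval 2.81 to 3.47) and 16.0 in the vehicle IP (1418 reads, 15.2 to 16.9). In lactate cells it was 3.81 in the input (277 reads, 3.37 to 4.28) and 12.4 in the IP (1222 reads, 11.7 to 13.1). Both IP libraries thus stood above both inputs, in the order vehicle input, lactate input, lactate IP and vehicle IP. The intervals of the inputs overlapped, while those of all other neighbours in this order did not.

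CDCP1 had a middling rank in the inputs and a high rank in the IPs. Among protein-coding genes at FPKM 1 or more it ranked 2951 of 5512 in the vehicle input and 753 of 6653 in the vehicle IP. It ranked 1907 of 4584 in the lactate input and 382 of 4734 in the lactate IP. The median FPKM of such genes was between 2.45 and 3.53 in the 4 libraries, so that CDCP1 lay near the median of the inputs and far above that of the IPs.

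Counted per 1000000 nuclear reads, CDCP1 had 65.1 reads in the vehicle input (58.6 to 72.2), 344 in the vehicle IP (326 to 362), 118 in the lactate input (105 to 133) and 578 in the lactate IP (546 to 612). On this scale both lactate libraries stood above their vehicle counterparts and none of the 4 intervals overlapped. On the FPKM scale the 2 IP libraries had the opposite order.

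**Figure D1:**
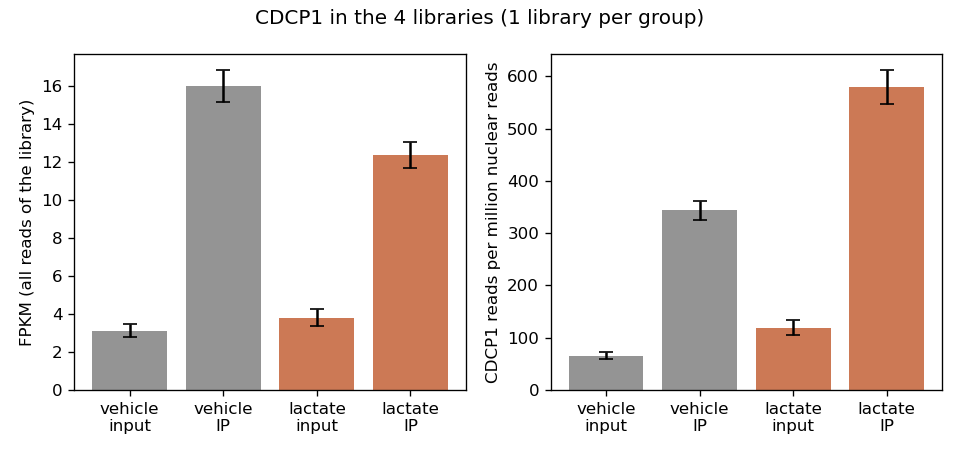
CDCP1 in each of the 4 libraries, as FPKM over all reads (left axis panel) and as reads per 1000000 nuclear reads (right axis panel). Bars are single libraries and error bars are 95% counting intervals. The IP bars stand above the input bars in both panels, whereas the order of the vehicle IP and the lactate IP turns between the panels (16.0 and 12.4 FPKM, 344 and 578 per 1000000 nuclear reads).

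The IP over input comparison asks which RNA was recovered with NSUN2. In vehicle cells the CDCP1 log2 ratio of FPKM + 1 was 2.04, or 2.35 without a pseudocount (95% interval 2.19 to 2.52), which is 5.11-fold. The median of 9099 genes, each at FPKM 1 or more in at least 1 of the compared libraries, was 0.44, and CDCP1 ranked 280 from the top with 3.07% of genes above it. CDCP1 was among the 27.6% of genes at least 2-fold higher in the vehicle IP, so that passing 2-fold was common here and its rank says more than that line.

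In lactate cells the log2 ratio of CDCP1 was 1.47, or 1.70 without a pseudocount (1.51 to 1.89), which is 3.25-fold. The median of 7170 genes was −0.10, and CDCP1 ranked 348 with 4.84% of genes above it, while 16% of genes were at least 2-fold higher. Taken from the median gene, the CDCP1 value was 1.60 in vehicle cells and 1.57 in lactate cells. Those medians are over different sets of genes, and without a pseudocount the distances were 1.74 and 1.87, so which condition had the larger distance is not settled.

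**Figure D2:**
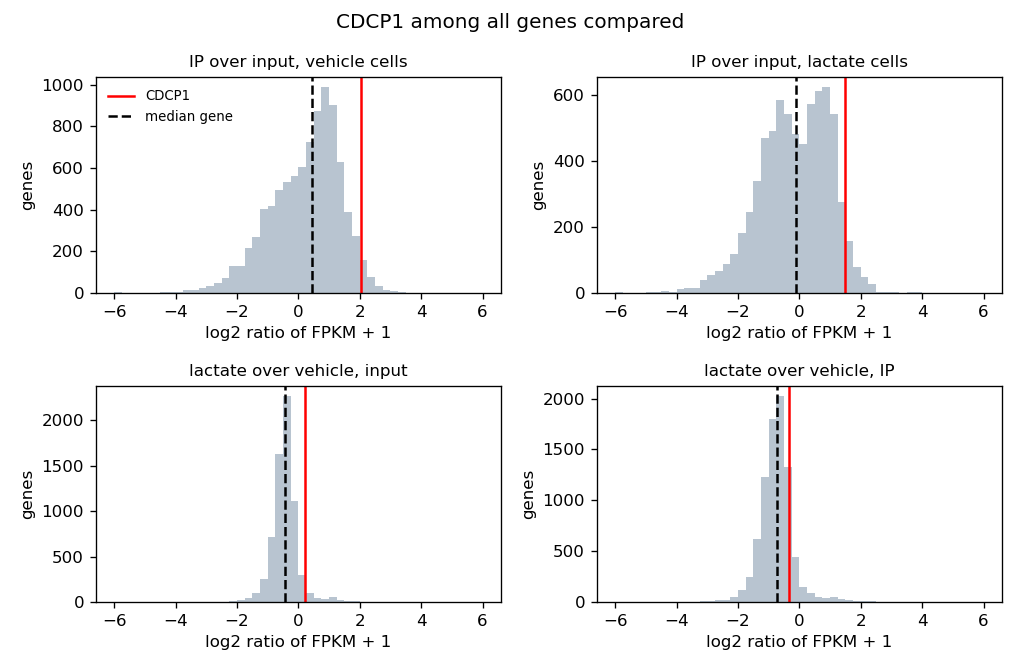
Histograms of log2 ratios of FPKM + 1 over all genes compared, with CDCP1 as a solid line and the median gene as a dashed line. CDCP1 lies in the upper tail for IP over input (2.04 against a median of 0.44 in vehicle cells, 1.47 against −0.10 in lactate cells) and to the right of the median in both lactate over vehicle comparisons.

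Comparing the inputs asks whether the level of the transcript differed after lactate. CDCP1 was higher in the lactate input, with a log2 ratio of 0.22, or 0.28 without a pseudocount (0.06 to 0.51), which is 1.22-fold. The median of 6766 genes was −0.43, and CDCP1 ranked 325 from the top, with 4.79% of genes above it. Among 5562 protein-coding genes it ranked 75, with 1.33% above it. It was not among the 1.76% of genes at least 2-fold higher or the 6.46% at least 2-fold lower. The log2 ratio was 0.65 relative to the median gene and 0.70 with equal nuclear totals, and without a pseudocount the latter was 0.86 (0.64 to 1.09), or 1.82-fold.

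Comparing the IP libraries gave CDCP1 a log2 ratio of −0.35 for lactate over vehicle, or −0.37 without a pseudocount (−0.48 to −0.26), but 0.40 relative to the median gene and 0.72 with equal nuclear totals. The median of 8366 genes was −0.74. CDCP1 ranked 1287, with 15.4% of genes above it, a share that was 4.38% at a floor of FPKM 5 and 58.2% with no floor. It was in neither the 1.64% of genes at least 2-fold higher nor the 27.7% at least 2-fold lower. The direction of this value thus depends on whether the mitochondrial reads are counted in the total.

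The change in enrichment, IP over input in lactate cells less that in vehicle cells, was −0.57 for CDCP1, or −0.66 without a pseudocount (−0.91 to −0.40). The median of 9445 genes was −0.36 and 67.9% of genes lay above CDCP1. Relative to the median the change was −0.21, and with equal nuclear totals it was 0.02, or −0.11 without a pseudocount (−0.36 to 0.14). The interval excluded 0 with all reads as the base and included it with nuclear reads as the base. Of all genes, 3.04% had an enrichment at least 2-fold higher in lactate cells and 9.56% one at least 2-fold lower.

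Peaks show where along CDCP1 the IP reads lay. The authors called them in each condition on 1 IP library against 1 input library, and the fold and q-value of each peak are theirs and serve here within a list only. Of the 19 vehicle peaks, 4 were placed in the 3′ untranslated region (3′ UTR), 4 in exons and 11 in introns, and together they covered 8185 bp, 12.7% of the gene. Of the 14 lactate peaks, 4 were in the 3′ UTR, 3 in exons and 7 in introns, covering 5029 bp or 7.83%. The vehicle exon peak 12.9 kb from the 3′ end overlapped a lactate peak classed as intronic. The lower exon count in lactate cells was thus a difference in class and not a lost peak. None lay in the 5′ UTR in either list. More peaks than CDCP1 were listed for 859 of 12138 genes in the vehicle list (7.08%) and for 491 of 9783 in the lactate list (5.02%).

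A q-value under 0.05 was listed for 16 of the 19 vehicle peaks, against 48.6% of that list, and for 11 of the 14 lactate peaks, against 42.7%. A fold of at least 5 was listed for 10 vehicle peaks, against 19.9% of the list, and for 5 lactate peaks, against 20.8%. The lactate share was thus above that of its list, but by less than the vehicle share was.

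All 14 lactate peaks overlapped a vehicle peak by at least 1 base, against 56.4% of the lactate list, and 14 of the 19 vehicle peaks overlapped a lactate peak, against 27.8% of the vehicle list. The 5 vehicle peaks with no lactate counterpart were all intronic, with 4 to 8 reads at the summit and folds of 3.03 to 5.46. No peak within the gene was assigned to another gene. The nearest peaks outside were 69.7 kb away or more on the 3′ side, in EXOSC7, and 188 kb or more on the 5′ side.

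The peak with the highest fold was in an exon in both lists. In vehicle cells it spanned chr3:45088902-45089329 with a summit 6.84 kb from the 3′ end of the gene, a fold of 18.2 and a q of 1.10e-60. In lactate cells it spanned chr3:45088910-45089325 with a fold of 30.1 and a q of 1.06e-107. It ranked 627 of 95785 by fold in the vehicle list and 27 of 48104 in the lactate list. A higher top fold was held by 490 genes (4.04%) in the vehicle list and by 25 genes (0.256%) in the lactate list.

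A further exon peak followed, at chr3:45090991-45091563 in vehicle cells and chr3:45091020-45091519 in lactate cells, with folds of 7.52 and 14.8. The peak with the smallest q of the vehicle list within CDCP1 lay instead at the very 3′ end, in the 3′ UTR, at chr3:45082277-45082956, with a fold of 5.54 and a q of 9.02e-120. Its lactate counterpart at chr3:45082286-45082873 had a fold of 2.29 and a q of 1.72e-17. The first 299 bases of the gene's 3′ end also belong to an lncRNA gene, LOC124906233, which is not in the gene table. The strand setting of the counting was not found in the labels or headers, so reads of both genes cannot be told apart there.

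**Figure D3:**
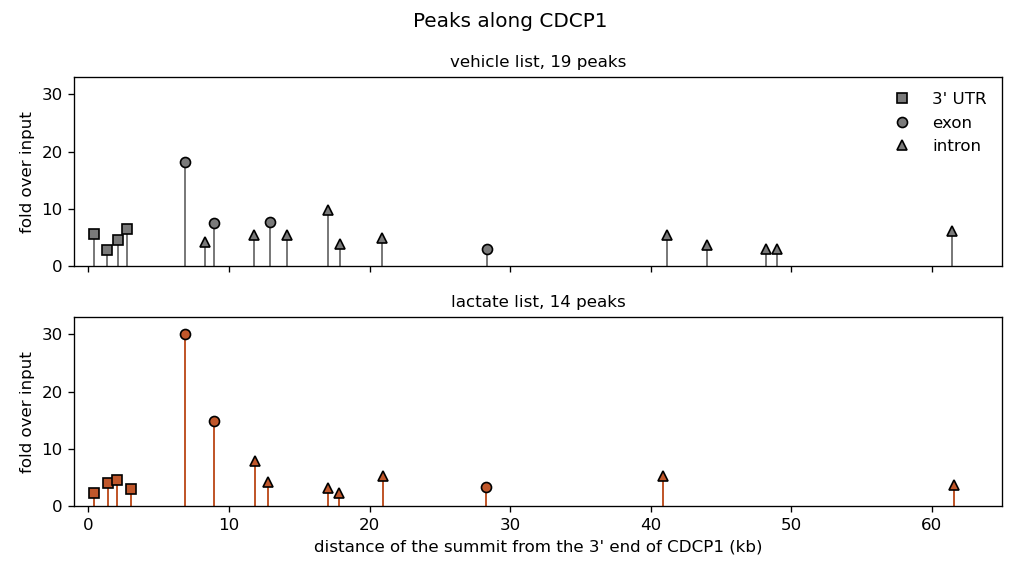
CDCP1 peaks of the vehicle list (top, 19 peaks) and of the lactate list (bottom, 14 peaks), at the distance of the summit from the 3′ end in kb, with the authors' fold over input as height. Symbols mark the authors' class of region. The highest peak is the exon peak at 6.84 kb in the vehicle list (18.2) and at 6.83 kb in the lactate list (30.1).

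The fold of a peak joins the IP and the input. The reads stacked at a summit in each were therefore recovered from the listed fold and p-value, with a largest misfit of 0.000924 in the −log10 p-value. At the exon peak 62 IP reads were stacked over 3 input reads in vehicle cells, and 114 over 2 in lactate cells. The next exon peak had 105 over 16 in vehicle cells and 112 over 5 in lactate cells. The peak at the 3′ end had 308 over 67 in vehicle cells and 209 over 71 in lactate cells. The folds of the exon peaks rest on few input reads, whereas the 3′ end was the deepest site in IP and input alike.

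Set against each other as recovered, the IP stacks differed in direction along the gene. At the exon peak the lactate stack was 1.84 times the vehicle stack (1.35 to 2.51), at the next exon peak 1.07 times (0.817 to 1.39) and at the 3′ end 0.679 times (0.569 to 0.809). The genome-wide depth per base of the 2 IP libraries differed by a factor of 1.02, if their reads were extended alike, which was not tested. The lactate stack was higher at 9 of the 14 peak pairs and lower at 5, and the interval of the ratio excluded 1 at 3 pairs. The third of these was an intron peak 17.1 kb from the 3′ end, with 15 reads in vehicle cells and 5 in lactate cells. The share of all peak pairs with such an interval is not given.

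With equal nuclear totals each of these ratios is 1.95 times larger, and the direction at the 3′ end turns. The ratio of lactate over vehicle was then 1.33 at the 3′ end (1.11 to 1.58), 3.59 at the exon peak (2.64 to 4.89) and 2.08 at the next exon peak (1.60 to 2.72). The lactate stack was higher at 12 of the 14 pairs on this scale, with the interval above 1 at 8 pairs and below 1 at none. Of all peak pairs 76.4% were then higher in lactate cells, and so were 52.2% of deep exon pairs and 65.8% of deep 3′ UTR pairs, deep meaning a mean stack of at least 20 reads. For the counts by interval no such share is given.

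As recovered, a stack higher in lactate cells was seen at 30.4% of all 25286 peak pairs of the 2 lists. It was seen at 5.44% of 3492 exon pairs whose mean stack was at least 20 reads, and at 7.77% of 3384 such pairs in 3′ UTRs. The median ratio was 0.522 for these exon pairs and 0.590 for the 3′ UTR pairs. A ratio as high as that of the CDCP1 exon peak was found at 13 of the exon pairs (0.372%), and one as high as that of the next CDCP1 exon peak at 160 (4.58%). The 3′ end of CDCP1, at 0.679, was above the median of the 3′ UTR pairs but inside their quartiles of 0.466 and 0.75. Of those pairs 65.8% were at or below it. The exon peak was singled out after its values were seen, and its place among the pairs is a description.

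Within the gene the exon peaks took a larger share of the IP reads, relative to the 3′ end, in lactate cells. As a percentage of the stack at the 3′ end, the exon peak was at 20.1% in vehicle cells and 54.5% in lactate cells, a 2.71-fold difference (1.90 to 3.87). The next exon peak was at 34.1% and 53.6%, a 1.57-fold difference (1.14 to 2.16). By the window reads of the authors' deposited IP comparison, the difference was 2.04-fold at the exon peak (1.21 to 3.44) and 0.992-fold at the next exon peak (0.718 to 1.37), so that it was not seen at the latter on that measure. Neither measure depends on the library total. Of the other 13 peak pairs, 10 had a larger share of the 3′ end stack in lactate cells, and the interval lay above 1 at 4 of them and below 1 at none. The larger share was not limited to exons. It was 2.58-fold at an intron pair (1.06 to 6.26) and 1.88-fold at a 3′ UTR pair (0.992 to 3.58). No share over the pairs of other genes is given for these counts. The 13 ratios share the 3′ end stack as their base and are not independent.

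The same measure was taken for 489 protein-coding genes with a deep pair in an exon and one in the 3′ UTR, each gene by its deepest pair of either kind. The median gene had a 0.913-fold difference, with quartiles of 0.680 and 1.25. CDCP1, by its exon pair of 105 and 112 reads, stood at 1.57-fold, and 60 of the genes (12.3%) were at or above it. CDCP1 was thus inside the upper range of genes by its deepest exon pair.

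**Figure D4:**
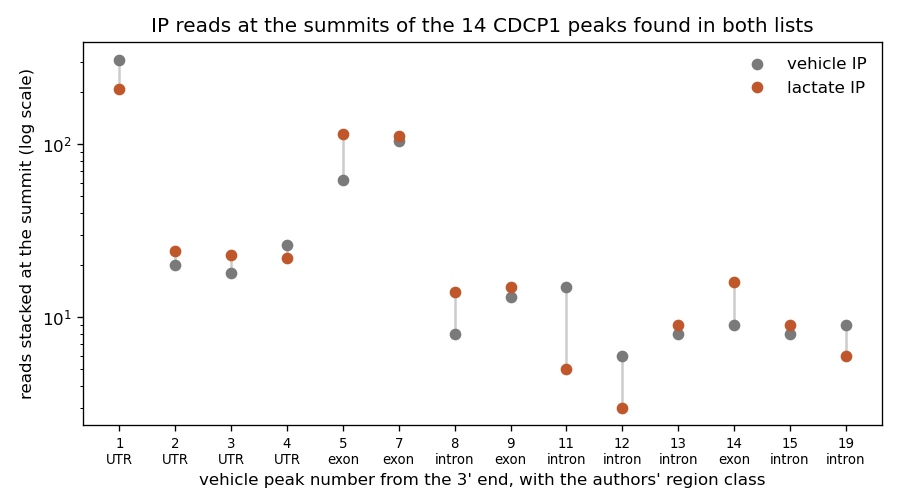
Reads stacked at the summit in the vehicle IP and the lactate IP (log scale) for the 14 CDCP1 peaks found in both lists, ordered from the 3′ end and named by vehicle peak number and region class. Peak 1, at the 3′ end, is lower in lactate cells (308 and 209 reads), and peak 5, in an exon, is higher (62 and 114 reads).

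The authors' deposited comparison of the IP libraries gives M, the log2 ratio of normalized densities of lactate over vehicle, in windows around the summits. M was above 0 at 13 of the 19 CDCP1 regions, against 34.1% of all regions, and above the overall median of −0.50 at 14, against 49.9%. It was at least 1 at 4 regions, against 13.9%, and at most −1 at 3, against 38.6%. By region class, M was above 0 at 4 of 4 in the 3′ UTR, 4 of 4 in exons and 5 of 11 in introns. The authors' normalization sets the median of the 26381 regions found in both lists near 0, and 50.1% of those had M above 0. Of the 19 regions, 14 were of that kind and 5 came from the vehicle list alone. Of the 18 pairs of neighbouring summits, 9 were closer than 2000 bases, the window length that the values fit, so that windows may share reads.

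The whole reads behind these values, recovered from M and A (the mean log2 density), ran the other way at several sites. At the 3′ end the window held 557 vehicle and 405 lactate reads, although the authors' deposited M was 0.67. At the exon peak it held 25 vehicle and 37 lactate reads, with an M of 1.01 in the deposited table. At the next exon peak it held 104 and 75 reads, with a deposited M of 0.25. In all, lactate cells had more reads at 6 of the 19 regions, vehicle cells at 11, and 2 were equal. A sign above 0 in M is thus a statement relative to the typical shared region.

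Windows and summits did not count the same reads. At the exon peak the window held 25 vehicle reads where 62 were stacked at the summit, and an intron window 1501 bases further on held 199 vehicle and 219 lactate reads where the summit had 6. The difference between both measures was not resolved, and the second exon peak was higher in lactate cells by its stack (105 and 112) but lower by its window (104 and 75).

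The genes around CDCP1 biochemistry were followed in lists of 110 symbols, of which 95 were in the gene table. Of these, 45 were measured in the comparison of the inputs, and none was 2-fold higher or lower in lactate cells, where 1.76% and 6.46% of all genes were. With a pseudocount of 0.1, 2 were lower, CD9 and PXN, the latter named after its values were seen. The share of all genes lower at that pseudocount is not given. With FPKM + 1, no list member stood above CDCP1 in the comparison of the inputs or in IP over input of vehicle cells. Without a pseudocount this still held for the inputs but not for IP over input of vehicle cells. There LRP10 (2.62), SEZ6L2 (2.52) and BCAR1 (2.42) stood above CDCP1 (2.35), and the other measured members below it.

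Kinases, phosphatases and adaptors linked to CDCP1 phosphorylation formed the first list, and all 9 were in the table. In IP over input of vehicle cells 5 were measured. Of these, 1 was at least 2-fold above the input and 1 at least 2-fold below it, against 27.6% and 15.3% of all genes. PTPN1, a tyrosine phosphatase, had FPKM 1.67, 8.36, 0.819 and 4.40 in the input and IP of vehicle cells and then the input and IP of lactate cells, the order used for all genes below. Its log2 IP over input was 1.81 in vehicle and 1.57 in lactate cells, beside 2.04 and 1.47 for CDCP1. YES1, an SRC-family kinase, had FPKM 38.1, 9.67, 30.0 and 3.51, and its log2 ratio was −1.87 and −2.78. PTPN11, the phosphatase SHP2, was at 0.73 and 0.31, and the kinase LYN at −0.41 and −0.42. SRC, FYN and PRKCD were under FPKM 1 in every library, with 2 to 5 reads for SRC. The kinase with the most RNA in the inputs was thus YES1, whose RNA was lower in the IP than in the input where that of CDCP1 was higher.

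Of 14 surface proteases and their inhibitors, 10 were in the table. PLAU, the urokinase plasminogen activator, had FPKM 10.4, 12.4, 7.53 and 11.4, with log2 IP over input of 0.23 in vehicle and 0.54 in lactate cells. PLAUR, the urokinase receptor, was under FPKM 1 in all 4 libraries, and ST14, which encodes matriptase, was not in the table. PLAU thus lay far below the 2.04 and 1.47 of CDCP1.

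Surface partners of CDCP1 had the highest median of the 6 lists in both IP over input comparisons. Of 18 symbols, 17 were in the table and 14 were measured in vehicle cells, with 7 higher in the IP by 2-fold or more and 2 lower by as much, against 27.6% and 15.3% of all genes, and a median of 1.04 beside 0.44. Relative to the median gene, 2 were higher by 2-fold and 3 lower, for which no share of all genes is given. In lactate cells 2 were higher and none lower, against 16% and 23.3% of all genes, with a median of 0.46 beside −0.10. ITGA3, the integrin alpha-3 subunit, had FPKM 3.25, 15.1, 2.45 and 8.66 and log2 IP over input of 1.92 and 1.49. SDC1, syndecan-1, had 1.10, 5.45, 1.21 and 3.70, with ratios of 1.62 and 1.09. The tetraspanin CD9 was at −1.21 and −0.68 and the protease ADAM9 at −1.23 and −0.82. ITGA3 was the list member nearest to CDCP1 in vehicle cells, and its log2 ratio of lactate over vehicle in the inputs was −0.30 where that of CDCP1 was 0.22.

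Adhesion effectors were spread wide. All 16 were in the table and 15 were measured in vehicle cells, 3 at least 2-fold higher in the IP and 2 lower, against 27.6% and 15.3% of all genes, with a median of 0.27 beside 0.44. The count of 3 was 1 relative to the median gene and 6 with a pseudocount of 0.1. Shares of all genes at these settings are not given, so the 27.6% applies to the count of 3 only. AKT2, a serine/threonine kinase of survival signalling, was at 1.80 in vehicle and 1.15 in lactate cells, and the adaptor CRK at 1.22 and 1.30. The small GTPases RHOA and RAP1A were at −1.30 and −1.35, and at −3.23 and −2.94. RAP1A, which controls integrin-based adhesion, had FPKM 19.1, 1.14, 12.8 and 0.797, the reverse of the CDCP1 pattern from input to IP.

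Of 11 transcription factors linked to CDCP1 expression, all in the table, 8 were measured in vehicle cells, 1 at least 2-fold higher in the IP and 1 lower, against 27.6% and 15.3% of all genes, with a median of −0.0047 beside 0.44. FOSL1, an AP-1 subunit, was at 1.36 and 0.83 on the log2 scale of IP over input, with FPKM of 12.4, 33.3, 11.1 and 20.6. HIF1A, the hypoxia-inducible factor subunit, was at −2.17 and −2.23, and ETS1 at −0.81 and −1.08. JUNB, another AP-1 subunit, was at 0.83 in vehicle cells and under FPKM 1 in both lactate libraries. EPAS1, which encodes HIF-2 alpha, was under FPKM 1 in every library.

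**Figure D5:**
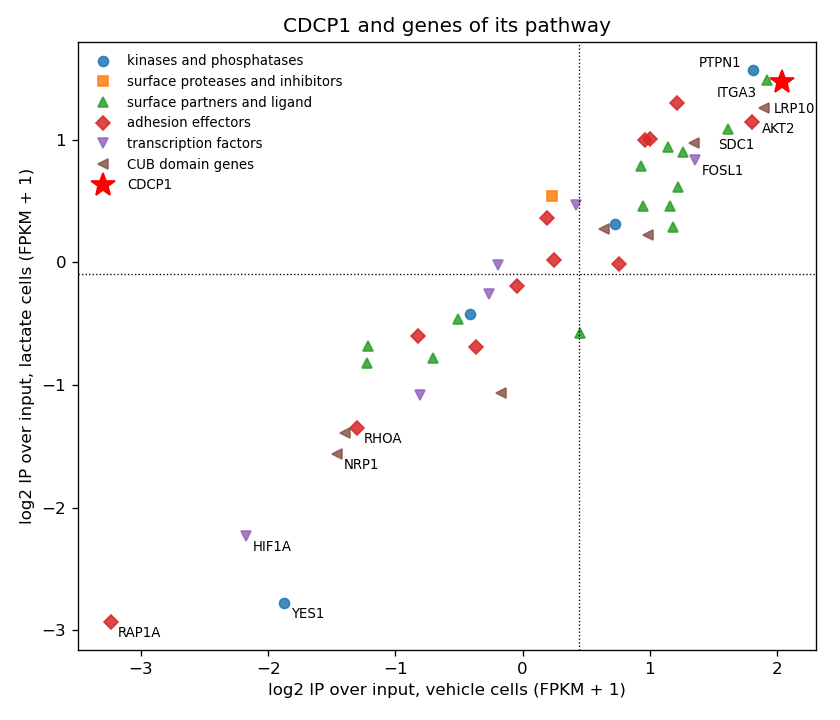
Log2 IP over input of FPKM + 1 in vehicle cells (horizontal axis) and lactate cells (vertical axis) for genes of the lists and for CDCP1 (star). Dotted lines mark the median of all genes (0.44 and −0.10). CDCP1 lies furthest to the right at 2.04, with ITGA3 (1.92), LRP10 (1.90) and PTPN1 (1.81) nearby and RAP1A (−3.23) at the other end.

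The genes with the pattern most like that of CDCP1 were sought over 4 points, the libraries, by Euclidean distance between log2(FPKM + 1) values centred on each gene's own mean. Among 3393 protein-coding genes at FPKM 1 or more in every library the median distance was 1.86. The nearest 10 were MAFG (0.17), TNIP2 (0.21), NME3 (0.22), MCRIP1 (0.23), TMEM141 (0.26), B3GAT3 (0.29), PIM3 (0.32), METRN (0.34), P3H4 (0.34) and LRP10 (0.34). MAFG, a small MAF transcription factor, had FPKM 1.02, 6.42, 1.01 and 4.72. TNIP2, an inhibitor of NF-kappaB signalling, had 1.82, 11.8, 2.80 and 7.84, and was higher in the lactate input like CDCP1, with a log2 ratio of 0.43. The match lies mainly in the step from input to IP, since 7 of the 10 had an input ratio of lactate over vehicle below 0.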

How the data were processed

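Per the submitters' processing notes, the authors worked on GRCh38 with tools that included MACS2 2.2.7.1, HISAT2 2.1.0, HOMER, DiffBind, bedtools and fastp. Which program counted genes, with what strand setting and annotation, is not given in these sources. Gene levels were deposited as FPKM, not rescaled between libraries. Peak lists were deposited per condition with a fold (ratio), p-value, q-value and the −log10 of both, per the file headers. The authors' comparison of the IP libraries was deposited as log2 M and A values with normalized densities (signal). Its P column was not used, and its column names are those of MAnorm, which no source names.

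Whole reads were recovered from FPKM (99.99% of 72387 values above 0 whole within 1e-06 reads), with rows lacking a symbol (4835) kept. Window reads were recovered from M and A (100% whole within 0.02 reads at 113281 regions under 200 reads) and taken from the same line above that. Summit stacks came from each peak's fold and p-value under the Poisson model of MACS2. All 3 steps were tested on simulated data. Ratios are log2 of FPKM + 1 over genes at FPKM 1 or more in a compared library. Values relative to the median gene had the median log2 ratio of all genes compared subtracted. Intervals (95%) are Poisson for levels and on log2 ratios without a pseudocount, and a count of 0 allows up to 3 reads. Python 3.11.15, numpy 2.4.6, pandas 2.3.3, scipy 1.17.1 and matplotlib 3.10.9 were used. CDCP1 and the gene lists were chosen with earlier results of these data known.

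Genes named beside CDCP1 were, of each list, the 2 highest and 2 lowest members in IP over input of vehicle cells, any member past 2-fold in the lactate over vehicle inputs, the 10 genes nearest in pattern, and 3 protein-coding neighbours on each side. One gene named by this rule is not reported here. Others are named only as under FPKM 1 or not in the table. Alternatives were pseudocounts of 0.1, 5 and none, other floors on FPKM, centring on the median gene, equal nuclear totals, stricter q, fold and overlap for peaks, and, chosen after seeing the data, summits at least 2000 bases apart, stacks at equal nuclear totals and within-gene shares by window reads. The comparison of peak pairs over all genes and its minimum mean stack of 20 reads were also chosen after seeing the data.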

Additional observations from a re-analysis of the deposited data

Results flagged for a closer look

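CDCP1 differed in opposite directions between conditions in the 2 kinds of library. Lactate over vehicle was 0.22 on the log2 scale of FPKM + 1 in the inputs and −0.35 in the IP libraries, each from 1 library per condition. The difference between these 2 values was not tested. Relative to the median gene both were above 0, at 0.65 and 0.40.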

How the results depend on the processing

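With 1 library per group, no replicate could be left out. No paired analysis was possible because each group holds 1 library and no result comes from a test. For lactate over vehicle in the inputs, the CDCP1 value of 0.22 was 0.65 relative to the median gene and 0.70 with equal nuclear totals. IP over input in vehicle cells (2.04) was 2.32 with a pseudocount of 0.1, 1.37 with 5, 2.35 with none and 1.60 relative to the median gene. In lactate cells (1.47) it was 1.67, 0.98 and 1.70 with the same pseudocounts, and 2.11 with equal nuclear totals. Lactate over vehicle in the IPs (−0.35) turned to 0.40 relative to the median gene and 0.72 with equal nuclear totals. The enrichment change (−0.57) was −0.21 relative to the median gene and turned to 0.021 with equal nuclear totals. Both rescalings remove a shift shared by nuclear genes by construction. A fold of at least 5 left 10 of 19 vehicle and 5 of 14 lactate peaks. Without centring, 2 of the 10 nearest genes were shared. The other 22 values that answer a comparison stayed within their interval or within 1.5 times. The share of genes above CDCP1 moved with the floor on FPKM: at 5 and with no floor it was 1.94% and 6.06% for the inputs (4.79%), 6.49% and 1.28% for IP over input in vehicle cells (3.07%), 7.47% and 1.68% in lactate cells (4.84%), 4.38% and 58.2% for the IPs (15.4%), and 61.5% and 85.2% for the enrichment change (67.9%). Taking exon pairs by a vehicle stack of at least 20 put 6 of 3939 (0.152%) at or above the CDCP1 exon peak, against 13 of 3492 (0.372%) by the mean stack. With summits at least 2000 bases apart, an alternative chosen after seeing the data, 10 of 13 regions had M above the median. Low stacks limit the intron peaks, 3 to 15 reads in either list.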

Other observations

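CUB domain genes, the structural relatives of CDCP1, gave few measured values. Of 42 symbols, 32 were in the gene table and 9 were measured in IP over input of vehicle cells, 2 at least 2-fold higher in the IP and 2 at least 2-fold lower, against 27.6% and 15.3% of all genes, with a median of 0.56 beside 0.44. LRP10, a receptor of the LDL receptor family, had FPKM 1.14, 6.98, 1.09 and 4.00 in the input and IP of vehicle cells and then of lactate cells, with log2 IP over input of 1.90 in vehicle and 1.26 in lactate cells. SEZ6L2, a cell-surface protein, was at 1.35 and 0.98. NRP1, a co-receptor for VEGF and semaphorins, had FPKM 3.95, 0.803, 3.11 and 0.394, with ratios of −1.46 and −1.56. LRP12 was at −1.40 and −1.39. With FPKM + 1, CDCP1, at 2.04 and 1.47, stood above all measured members in both conditions. Without a pseudocount this did not hold, as LRP10 and SEZ6L2 then stood above CDCP1 in vehicle cells and in lactate cells. The counting intervals of both genes overlapped that of CDCP1 in each condition. The other measured members stayed below CDCP1.

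The protein-coding genes on either side of CDCP1 on chromosome 3 did not share its values. EXOSC7, an exosome subunit 69.6 kb away on the 3′ side, had FPKM 2.41, 2.37, 1.45 and 0.743 in the same order of libraries, with log2 IP over input of −0.02 and −0.49 and 5 vehicle and 3 lactate peaks. TMEM158, 78.0 kb away on the 5′ side, had FPKM 1.87, 1.41, 1.67 and 2.02, with −0.25 and 0.18 and no peak in either list. ZDHHC3, a palmitoyltransferase, was at 0.73 in vehicle cells and had 8 and 4 peaks. LIMD1, a LIM domain protein, was at 0.13 in vehicle cells with 15 and 10 peaks at a vehicle IP level of 1.07 FPKM. LARS2, the mitochondrial leucyl-tRNA synthetase, was under FPKM 1 in every library yet had 13 and 4 peaks. TGM4, a transglutaminase, had 3 reads in the lactate IP and was listed at 0 in the other libraries.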
